A study of Mus musculus with 8 samples.

Results

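The enzymes and proteins that make steroid hormones, together with the nuclear receptor Nr5a1, were followed across 4 mouse models of endometrial cancer. They were 10 genes of the 24419 in the count table: Nr5a1, Nr0b1, Star, Cyp11a1, Cyp17a1, Cyp21a1, Cyp19a1, Hsd3b1, Hsd17b3 and Scarb1. They were chosen by their measured levels, because their counts are high in the TPMPik3r1 libraries, so every comparison with TPMPik3r1 is given as a description, with no test. The models without TPMPik3r1 were compared with tests. Polyadenylated RNA was sequenced in bulk from 8 libraries, 2 of each model, which the study's figure legends give as separate mice. The labels speak of tumor organoids in nude mice, whereas the methods describe tumor tissue from female BALB/cA-nu mice whose uterus had received edited uterus organoids of CAG-Cas9-EGFP mice. All models carried edits that include an sgRNA against Trp53. TPM also overexpressed Myc from a retrovirus, TPMPik3ca added a mutant Pik3ca cDNA to TPM, TPMPik3r1 added an sgRNA against Pik3r1 to TPM, and no Myc was introduced into TPK. The edits were made in whole organoid cultures, and the methods name no removal of the ovaries or adrenal glands of the hosts.

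Steroid hormones are made from cholesterol, which Scarb1 takes up from lipoproteins and Star carries into mitochondria. Cyp11a1 cuts its side chain to give pregnenolone, and enzymes such as Hsd3b1, Cyp17a1, Cyp21a1, Hsd17b3 and Cyp19a1 turn this into progestins, androgens, corticoids and estrogens. Nr5a1, also called SF-1, is a nuclear receptor that turns on many of these genes in the adrenal cortex and gonads, and Nr0b1, also called DAX-1, is a partner that restrains it.

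Sequence before the transcription start is shown for 2 members whose levels in both TPMPik3r1 libraries were above those of the other models, because the letters that Nr5a1 or zinc finger factors of the Gata4 family read can be seen in it. The RefSeq table of promoters (GRCm38.p6) held entries for 5 of the 10 members, and none was listed for Nr5a1, Star, Cyp17a1, Cyp21a1 and Scarb1. In the first, capitals mark AGGTCA, the half-site that Nr5a1 and other nuclear receptors read, searched on both strands. In the second, capitals mark the Gata factor motif AGATAA, which lies on the opposite strand. Bases annotated as exon in GENCODE M21 were left out.
Nr0b1, chrX:86191525-86191763, plus strand: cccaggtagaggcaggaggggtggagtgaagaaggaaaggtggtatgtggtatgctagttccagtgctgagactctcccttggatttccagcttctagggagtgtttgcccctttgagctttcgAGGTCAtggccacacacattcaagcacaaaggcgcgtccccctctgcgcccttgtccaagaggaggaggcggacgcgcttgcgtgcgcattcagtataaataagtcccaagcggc
Hsd3b1, chr3:98859795-98860044, minus strand: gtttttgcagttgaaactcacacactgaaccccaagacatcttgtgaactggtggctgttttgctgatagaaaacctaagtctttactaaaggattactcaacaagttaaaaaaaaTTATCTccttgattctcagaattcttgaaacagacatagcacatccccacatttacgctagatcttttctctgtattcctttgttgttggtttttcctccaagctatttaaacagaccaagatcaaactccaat
The half-site lay 126 bases before the start in Nr0b1, and the Gata factor motif 134 bases before it in Hsd3b1. A half-site also lay 28 bases before a start of Cyp11a1, in sequence that GENCODE annotates as untranslated exon and that is not shown. Another half-site lay 81 bases before a start of Cyp19a1, a member at 0 counts in both TPMPik3r1 libraries. Neither motif was found before the other start of Cyp11a1, the other starts of Cyp19a1 or the start of Hsd17b3. Among 32851 RefSeq promoters of the same 250 bases, 14.0% held the half-site and 9.99% the Gata factor motif, on either strand. The longer Nr5a1 site CAAGGTCA was also searched. It was found in none of the 8 promoter entries of the members, and in 1.33% of all promoters.

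Total counts per library lay between 15748396 and 26943611, the highest in TPMPik3r1 replicate 1. Levels are given as CPM, in which each library is scaled by its total and its TMM factor, and 3 counts, taken as the floor, equal between 0.116 and 0.198 CPM, a limit that covers counting error only. The TPMPik3r1 libraries differed more from each other than other pairs did. Of 15875 genes tested, 2701 were over 4-fold apart between them, against 749 to 1293 in the other models. Over genes, TPMPik3r1 replicate 2 correlated at 0.928 and 0.923 with the TPMPik3ca libraries and at 0.871 with TPMPik3r1 replicate 1. It was thus closer to TPMPik3ca than to its own replicate. The 6 epithelial markers summed to 6.47 and 27.4 CPM in TPMPik3r1 and to 23.7 and 73.3 CPM in TPMPik3ca, whereas TPM and TPK held between 2941 and 5498 CPM. Markers of the labelled endometrial epithelium were thus low in TPMPik3r1 and TPMPik3ca. In bulk tissue, fewer cells of a type and less RNA per cell cannot be told apart.

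Nr5a1 (chromosome 2, 38692656 to 38714542, minus strand, GRCm38) was at 753 CPM in TPMPik3r1 replicate 1 and 148 CPM in replicate 2. In TPMPik3ca it was at 0.507 and 5.23 CPM, in TPM at 0.181 and 0.400 CPM, and in TPK at 0 and 0.198 CPM. Both TPMPik3r1 libraries were thus above all others, and TPMPik3ca replicate 2 came next. Replicate 1 was 144-fold and replicate 2 28.3-fold over that library. Nr0b1 (chromosome X, 86191764 to 86195947, plus strand) was at 33.7 and 2.67 CPM in the TPMPik3r1 replicates. It had 0 counts in 5 of the other libraries and 2 counts in TPMPik3ca replicate 2.

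**Figure D1:**
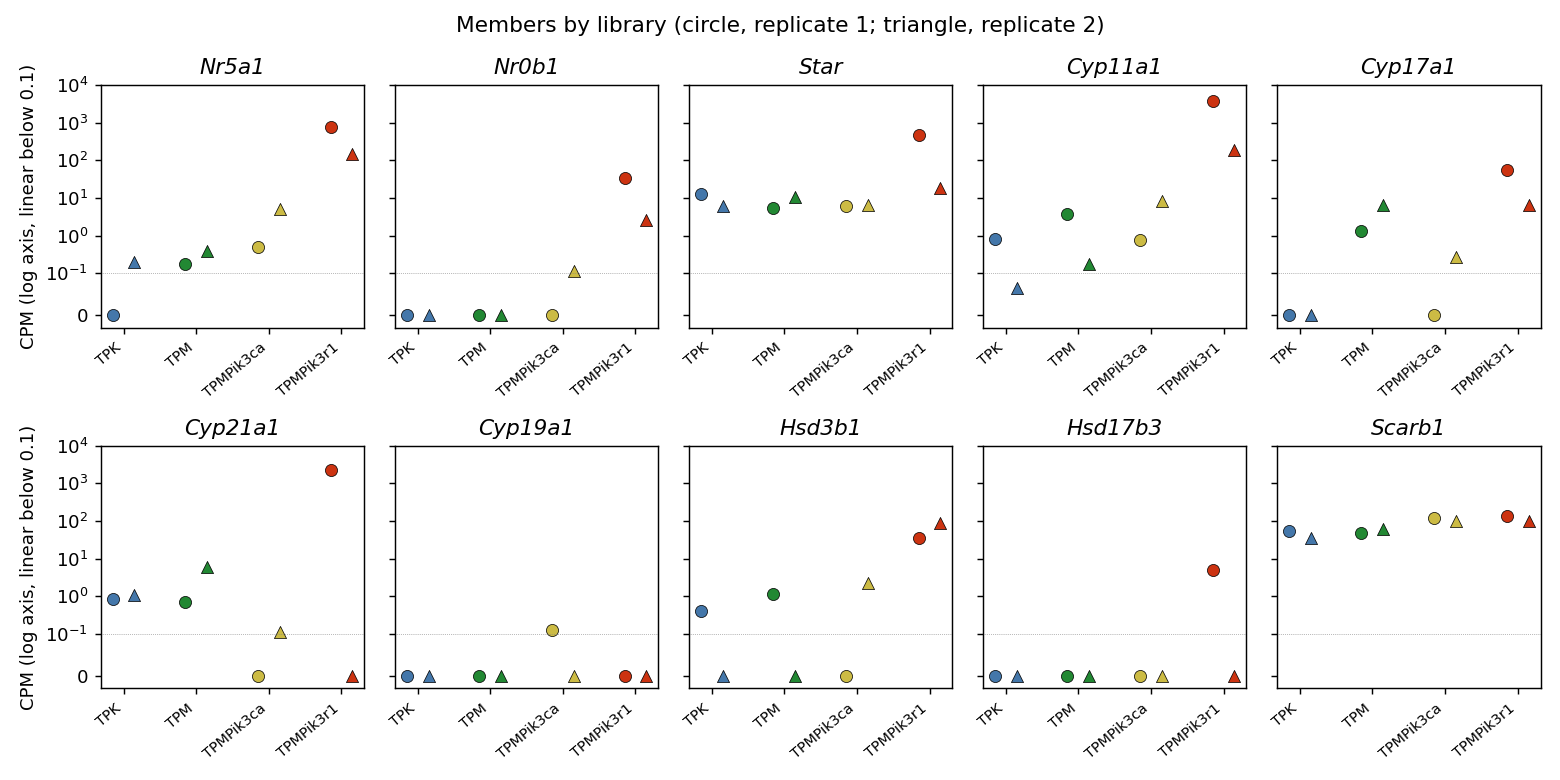
Level of each member (CPM, log axis that is linear below 0.1) in the 8 libraries, with a circle for replicate 1 and a triangle for replicate 2 of each model. Cyp21a1 and Hsd17b3 are high in TPMPik3r1 replicate 1 and at 0 in replicate 2, whereas Hsd3b1 is higher in replicate 2.

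Members that bring cholesterol to the pathway differed widely in their contrast to the other models. Scarb1 (chromosome 5, 125277087 to 125341094, minus strand), which brings in cholesterol, was at 136 and 99.2 CPM in TPMPik3r1. It was at 120 and 103 CPM in TPMPik3ca, 49.3 and 61.7 CPM in TPM, and 54.3 and 36.3 CPM in TPK. The TPMPik3r1 and TPMPik3ca libraries overlapped, and all 4 were above TPM and TPK. Star (chromosome 8, 25806555 to 25815982, plus strand), the carrier into mitochondria, was at 468 and 18.5 CPM in TPMPik3r1 and between 5.24 and 12.6 CPM in the other 6 libraries. Replicate 2 was 1.47-fold over the highest of them, TPK replicate 1.

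The enzyme of the first step and that of progesterone synthesis were high in both TPMPik3r1 libraries. Cyp11a1 (chromosome 9, 58006411 to 58027023, plus strand) was at 3768 and 182 CPM in TPMPik3r1. It was at 0.760 and 8.46 CPM in TPMPik3ca, 3.79 and 0.172 CPM in TPM, and 0.800 and 0.0659 CPM in TPK. Both TPMPik3r1 libraries stood above the rest, and the other 3 models overlapped. Cyp11a1 shares 145 exonic bases with the noncoding RNA gene Gm17322 on the same strand, so reads there could be split between them. Hsd3b1 (chromosome 3, 98852194 to 98859794, minus strand), which makes progesterone from pregnenolone, was at 35.0 and 91.1 CPM in TPMPik3r1. It was at 0 and 2.28 CPM in TPMPik3ca, 1.14 and 0 CPM in TPM, and 0.400 and 0 CPM in TPK. It was the one member higher in TPMPik3r1 replicate 2 than in replicate 1. Hsd3b6, another gene of the Hsd3b family and not a member, went the other way. It was at 52.7 CPM in replicate 1, 0.111 CPM in replicate 2 and at most 0.111 CPM in the other models, and was picked after its values were seen.

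Enzymes of the later branches differed between the TPMPik3r1 libraries. Cyp17a1 (chromosome 19, 46667165 to 46673172, minus strand), needed for androgens, was at 54.2 and 6.61 CPM there. It was at 0 and 0.278 CPM in TPMPik3ca, 1.32 and 6.52 CPM in TPM, and 0 CPM in both TPK libraries. TPMPik3r1 replicate 2 was therefore close to TPM replicate 2, at 1.01-fold. Cyp21a1 (chromosome 17, 34801348 to 34804561, minus strand), the 21-hydroxylase of corticoid synthesis, was at 2274 CPM in TPMPik3r1 replicate 1, from 58730 counts, and at 0 counts in replicate 2. It was at 0 and 0.111 CPM in TPMPik3ca, 0.722 and 5.89 CPM in TPM, and 0.857 and 1.05 CPM in TPK. Replicate 1 was at least 13637-fold higher than replicate 2, against 3 counts in that library. In Cyp21a1, 5.35% of windows of 100 bases are shared with the pseudogenes Cyp21a2-ps and Tnxa, so part of its reads could be split with them.

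Members for the last steps to sex steroids were at 0 in most libraries. Hsd17b3 (chromosome 13, 64058266 to 64089230, minus strand), which makes testosterone, had 128 counts in TPMPik3r1 replicate 1, or 4.96 CPM, and 0 counts in the other 7 libraries. That was at least 29.7-fold over TPMPik3r1 replicate 2, against 3 counts in that library. Cyp19a1 (chromosome 9, 54165937 to 54268110, minus strand), the aromatase, had 2 counts in TPMPik3ca replicate 1 and 0 counts elsewhere, so it was not detectable above the floor in any library. Of the 10 members, 6 were above all 6 libraries of the other models in both TPMPik3r1 libraries: Nr5a1, Nr0b1, Star, Cyp11a1, Cyp17a1 and Hsd3b1. Among all genes tested, 6.75% were. Since the members were picked for this, nothing is read from the count. TPMPik3r1 replicate 1 alone was above those libraries for 9 members, against 22.9% of genes, and replicate 2 for 6, against 15.3%. The median difference of the members, TPMPik3r1 minus the mean of the other models, was 4.996 on the log2 CPM scale, and 2.63 without TPMPik3r1 replicate 1.

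Levels were also compared per kilobase of exon, so that genes of unequal length can be set side by side. In TPMPik3r1 replicate 1 the order was Cyp21a1 with 1063, Cyp11a1 with 784, Nr5a1 with 178 and Star with 114 CPM per kb. Next came Cyp17a1 with 19.6, Hsd3b1 with 18.9, Nr0b1 with 18.6, Scarb1 with 16.01 and Hsd17b3 with 3.56 CPM per kb. In replicate 2 the order was Hsd3b1 with 49.1, Cyp11a1 with 37.8, Nr5a1 with 34.9, Scarb1 with 11.7, Star with 4.49, Cyp17a1 with 2.39 and Nr0b1 with 1.48 CPM per kb. Thus corticoid and side-chain enzymes led per kb in replicate 1, and Hsd3b1 led per kb in replicate 2. The length was that of all annotated exons of a gene merged, 4.804 kb for Cyp11a1 and 1.855 kb for Hsd3b1. In CPM, replicate 2 held Cyp11a1 at 182, Nr5a1 at 148 and Hsd3b1 at 91.1, so its order depends on these lengths. Each order rests on 1 library, so the spread of neighboring levels is not known.

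**Figure D2:**
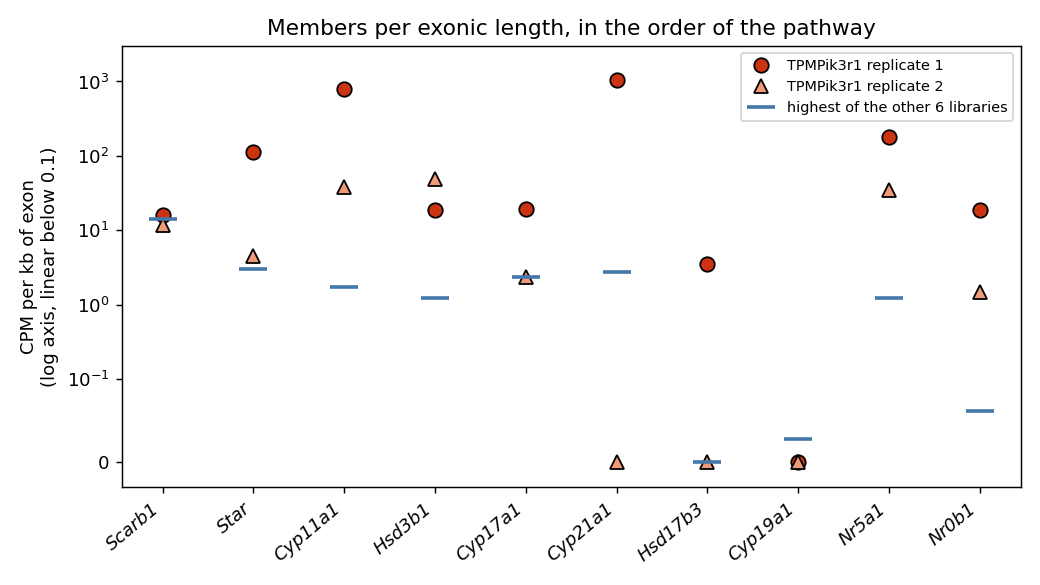
Level per kilobase of exon (CPM per kb, log axis that is linear below 0.1) of each member in the order of the pathway, with Nr5a1 and Nr0b1 last. Circles and triangles are TPMPik3r1 replicates 1 and 2, and bars mark the highest of the other 6 libraries. The bar lies above the triangle for Scarb1, Cyp21a1 and Cyp19a1.

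The replicate difference was read gene by gene. TPMPik3r1 replicate 1 exceeded replicate 2 by 5.08-fold for Nr5a1, 12.6-fold for Nr0b1, 25.4-fold for Star, 20.7-fold for Cyp11a1, 8.20-fold for Cyp17a1 and 1.37-fold for Scarb1. For Hsd3b1 the ratio was 0.384. The members therefore did not scale by 1 common factor between these libraries. Genes that pass electrons to the mitochondrial enzymes went the same way. Fdx1, the ferredoxin, was at 779 and 56.0 CPM in TPMPik3r1 and at most 60.8 CPM elsewhere. Fdxr, its reductase, was at 626 and 105 CPM, and at most 35.6 CPM elsewhere. Fdxr was chosen after its values were seen.

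**Figure D3:**
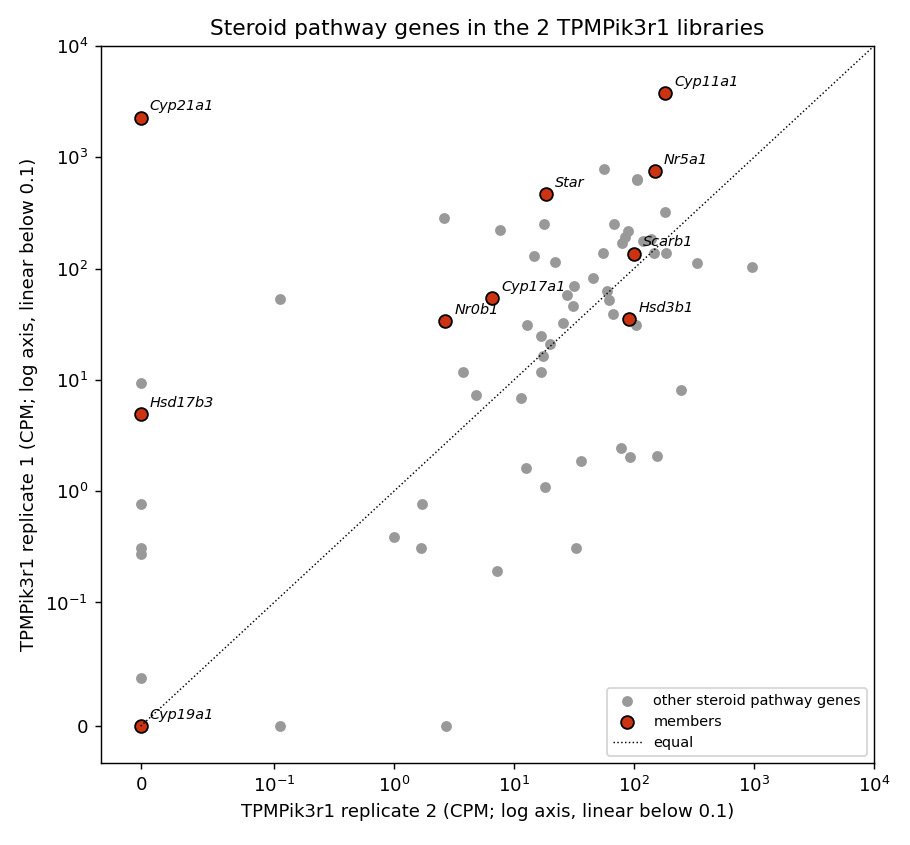
Level of the members (red) and other steroid pathway genes (grey) in TPMPik3r1 replicate 1 against replicate 2 (CPM, log axes that are linear below 0.1). The dotted line marks equal levels, and Hsd3b1 is the member below it.

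Marker genes of steroid-making and other cells were summed in each library, and their part in the members' levels was not tested. The 5 adrenal cortex markers summed to 303 CPM in TPMPik3r1 replicate 1, 3.33 CPM in replicate 2 and 1.14 to 9.79 CPM elsewhere. Most of the 303 CPM was Mrap, a partner of the ACTH receptor, at 286 CPM, while Cyp11b2 was at 0. Akr1b7 was at 15.9 CPM in replicate 1, 0.723 CPM in replicate 2 and at most 1.25 CPM elsewhere. Cyp11b1 was at 0.774 CPM in replicate 1, against at most 0.361 CPM in the other models, and Mc2r at 0.271 CPM, against at most 0.835 CPM. Mrap is also made by fat cells, and it was picked here after its values were seen. The 3 gonadal interstitial markers summed to 86.8 and 8.56 CPM in TPMPik3r1 and at most 4.91 CPM elsewhere. The 2 sums came from different genes. Hsd3b6 was at 52.7 and 0.111 CPM in replicates 1 and 2, Insl3 at 33.9 and 1.22 CPM, and Lhcgr at 0.194 and 7.23 CPM. The 7 granulosa cell markers were at 44.8 and 222 CPM, against 19.2 to 86.7 CPM, with Fshr at 0 in all 8 libraries. Of the 6 granulosa markers tested, 2 were above the other models in replicate 1, against 22.9% of all genes tested. In replicate 2, 6 were, against 15.3%. The 7 luteal markers were at 459 and 70.8 CPM, against 50.4 to 224 CPM. The luteal sum of replicate 1 was mostly Prlr, at 221 CPM, and Parm1, at 156 CPM. Of the 6 luteal markers tested, 2 were above the other models in replicate 1, against 22.9% of all genes tested. Akr1c18 and Sfrp4 of that list were at 11.7 and 0.155 CPM in replicate 1. Parm1 and Sfrp4 were picked after their values were seen. The sums of the adrenal and interstitial lists were thus highest in replicate 1, and that of the granulosa list in replicate 2. The adrenal medulla list was at 0.697 and 1.28 CPM in TPMPik3r1, against 0.132 to 6.81 CPM. The oocyte list was at 1.28 and 1.33 CPM, against 0.286 to 0.963 CPM. Trophoblast markers were at 0 in TPMPik3r1 and at most 0.114 CPM elsewhere.

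**Figure D4:**
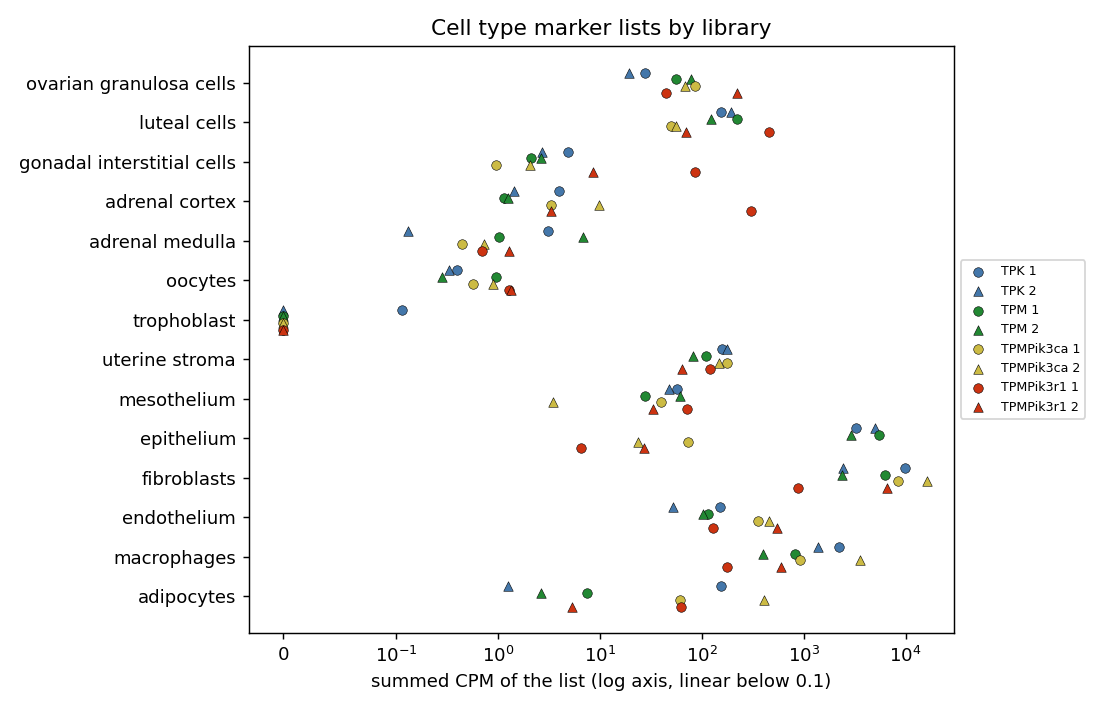
Summed level of 14 marker lists (CPM, log axis that is linear below 0.1) in each library, with colors for the models, circles for replicate 1 and triangles for replicate 2. The adrenal cortex list reaches 303 CPM in TPMPik3r1 replicate 1.

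The remaining lists were those of tissue that surrounds or forms tumors. In TPMPik3r1, fibroblast markers were at 872 and 6511 CPM, endothelial markers at 129 and 547 CPM, and macrophage markers at 177 and 598 CPM. The other models held 2363 to 16374 CPM of fibroblast, 52.4 to 460 CPM of endothelial and 397 to 3574 CPM of macrophage markers. Uterine stroma was at 121 and 64.4 CPM, against 81.4 to 177 CPM, and mesothelium at 71.1 and 33.0 CPM, against 3.45 to 61.2 CPM. Of the 121 CPM, 88.7 was Hoxa10 and 30.7 Hoxa11, while Wnt4, at 1.24 CPM, and Bmp2, at 0.348 CPM, were below all other libraries. Of the 71.1 CPM, 58.9 was Lrrn4, 8.29 Msln and 3.87 Upk3b. The stroma genes named were picked after their values were seen. Adipocyte markers were at 63.2 and 5.28 CPM, against 1.25 to 405 CPM, and 58.7 CPM of the first sum was Plin1, picked after its values were seen. Fibroblast, endothelial and macrophage markers were thus lower in replicate 1, where 9 members were above the other models. TPMPik3ca replicate 2, the highest of the other libraries for Nr5a1, Nr0b1, Cyp11a1 and Hsd3b1, had the highest sum of the 8 libraries for adipocyte, fibroblast and macrophage markers, and the highest of the other models for endothelial markers.

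The first comparison without TPMPik3r1 asked whether mutant Pik3ca in addition to the TPM edits went with other levels of these genes. Of the 6 members that passed the filter on low counts without the TPMPik3r1 libraries, 0 passed an adjusted p of 0.05 in edgeR. Of all genes, 0.466% were called higher and 3.02% lower in TPMPik3ca than in TPM. At an unadjusted p under 0.05, 2 members were found, against 22.1% of genes, and DESeq2 called the same 2 members. Scarb1 was higher in TPMPik3ca by 1.002 ± 0.307 (SE) on the log2 scale, with adjusted p = 0.128 in edgeR and 0.0325 in DESeq2. Cyp17a1 had a log2 fold change of -4.71 ± 1.72 (SE), with adjusted p = 0.192 in edgeR and 0.0200 in DESeq2. The fit of all 8 libraries takes in the spread between the TPMPik3r1 replicates, which for Cyp21a1 were at 58730 and 0 counts. Without these libraries, the log2 fold change of Cyp21a1 was -5.66 ± 1.52 (SE), with adjusted p = 0.0671 in edgeR. In DESeq2 on all 8 libraries its adjusted p was 0.264. In DESeq2, 6.12% of genes were called higher and 9.96% lower. Nr5a1 and Nr0b1 passed the filter on low counts only through the TPMPik3r1 libraries, without which 6 members could be tested, so no fold or p is given for them.

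**Figure D5:**
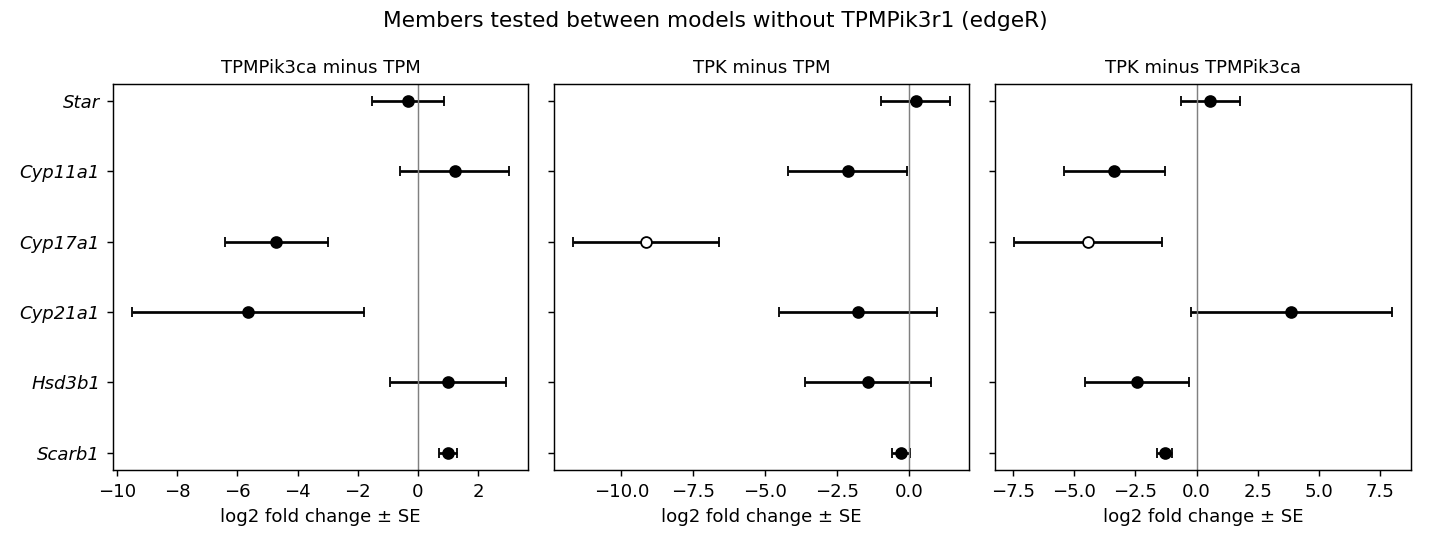
Log2 fold change with its SE in the comparisons between TPK, TPM and TPMPik3ca, from the edgeR fit of all 8 libraries. The 6 members shown are those that passed the filter without the TPMPik3r1 libraries. Open circles mark a comparison with a group at 0, and none of the 6 passed an adjusted p of 0.05 in this fit.

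The next comparison set TPK, without introduced Myc, against TPM. By edgeR 0 members passed an adjusted p of 0.05, where 0% of all genes were called in either direction. At an unadjusted p under 0.05, 1 member was found, against 7.17% of genes, and DESeq2 called 1, against 0.587% of genes higher and 0.930% lower. That member was Cyp17a1, at 0 CPM in both TPK libraries and at a mean of 3.92 CPM in TPM. It was at least 21.2-fold lower in TPK, against 3 counts in each library, with adjusted p = 0.666 in edgeR and 0.00566 in DESeq2. Scarb1 differed by -0.29 ± 0.305 (SE) on the log2 scale and Star by 0.23 ± 1.20 (SE). The SE from the fit of all 8 libraries also takes in the spread between the TPMPik3r1 replicates. In the edgeR fit without these libraries, Star differed by 0.224 ± 0.570 (SE).

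Between TPK and TPMPik3ca, 0 members passed in edgeR, where 4.60% of all genes were called higher and 1.43% lower in TPK. At an unadjusted p under 0.05, 1 of the 6 members was found, Scarb1, against 27.5% of genes. DESeq2 called it too, against 12.1% of genes higher and 9.22% lower. Nr5a1 had 0 and 3 counts in TPK and 8 and 94 counts in TPMPik3ca. Nothing is read from it, because it failed the filter without the TPMPik3r1 libraries. Scarb1 had a log2 fold change of -1.30 ± 0.309 (SE), with adjusted p = 0.0593 in edgeR and 0.00226 in DESeq2. In edgeR it passed without TPMPik3r1 replicate 1 (adjusted p = 0.0360), without TPMPik3r1 replicate 2 (0.0364) and without both (0.0339). These comparisons share libraries, so they are not independent of each other.

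Other genes of the pathway were taken from 5 lists of 63 genes, of which 61 were in the table and 50 were tested. Some of the 50 passed the filter on low counts only through the TPMPik3r1 libraries, and the medians and counts include them. The genes named below as called in edgeR passed the filter without these libraries. Their median log2 fold change was 0.02 for TPMPik3ca against TPM, 0.08 for TPK against TPM and 0.13 for TPK against TPMPik3ca, beside -0.01, 0.01 and 0.01 over all genes tested. Against TPM, 1 was higher and 2 were lower in TPMPik3ca by edgeR, where 0.466% and 3.02% of all genes were. Gata4, a regulator of gonadal genes, was at 5.32 and 11.3 CPM in TPMPik3ca and 0 in TPM, at least 47.2-fold higher against 3 counts in each library (adjusted p = 0.00889 in edgeR). Akr1c18, which inactivates progesterone, was at 1.33 and 1.002 CPM in TPMPik3ca and 77.8 and 60.8 CPM in TPM, and its log2 fold change was -5.89 ± 0.712 (SE, adjusted p = 0.0129 in edgeR). Cyb5a, cytochrome b5, was at 25.5 and 38.0 CPM against 88.6 and 142 CPM, with a log2 fold change of -1.86 ± 0.366 (SE, adjusted p = 0.0476 in edgeR). Gata4 passed without each library in turn. Akr1c18 did not pass without TPM replicate 1 (adjusted p = 0.0574), TPMPik3ca replicate 1 (0.104) or TPMPik3ca replicate 2 (0.106). Cyb5a passed only without TPMPik3r1 replicate 1 or 2, and its adjusted p was between 0.104 and 0.206 without any other library.

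Between TPK and TPM, 0 of these 50 genes passed in edgeR, 4 had an unadjusted p under 0.05, against 7.17% of all genes, and DESeq2 called 3, against 0.587% of all genes higher and 0.930% lower. Between TPK and TPMPik3ca, 3 were higher and 1 was lower in TPK, against 4.60% and 1.43% of all genes. Akr1c18, at 60.8 and 116 CPM in TPK, was higher by 6.24 ± 0.723 (SE, adjusted p = 0.0104 in edgeR). Srd5a1, a steroid 5-alpha-reductase, was at 101 and 422 CPM in TPK and 14.6 and 16.2 CPM in TPMPik3ca, higher by 4.09 ± 0.700 (SE, adjusted p = 0.0255 in edgeR). Stard3, which moves cholesterol between membranes, was at 67.4 and 104 CPM against 20.8 and 34.6 CPM, higher by 1.63 ± 0.357 (SE, adjusted p = 0.0482 in edgeR). Gata4 was at 1.09 and 1.45 CPM in TPK and fell by 2.71 on the log2 scale (SE 0.478, adjusted p = 0.0367 in edgeR). Without either TPK, TPM or TPMPik3ca library, Stard3 and Gata4 did not pass, with adjusted p from 0.0869 to 0.259 and from 0.0546 to 0.188. Srd5a1 passed without TPK replicate 1 (0.0255) and not without TPK replicate 2 (0.0665), a TPM replicate (0.0556 and 0.0533) or a TPMPik3ca replicate (0.166 and 0.117). Akr1c18 did not pass without TPK replicate 2 (0.0528), TPMPik3ca replicate 1 (0.0867) or TPMPik3ca replicate 2 (0.0705).

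Abundant genes of each list were seen in every library. Among cholesterol supply genes, Npc2 ranged from 120 to 332 CPM with a median of 229, Tspo from 68.1 to 249 CPM with a median of 116, and Soat1 from 32.8 to 185 CPM with a median of 128. Tspo and Soat1 were highest in TPMPik3r1 replicate 1, whereas Npc2 and Tspo were lowest in TPMPik3r1 replicate 2. Of the electron carriers, Cyb5b ranged from 107 to 636 CPM and Por, the reductase of microsomal P450 enzymes, from 146 to 364 CPM. Cyb5b was lowest in TPMPik3r1 replicate 2 and highest in TPMPik3r1 replicate 1. Among other enzymes, Hsd17b12 ranged from 75.3 to 236 CPM, Hsd17b4 from 59.5 to 193 CPM and Hsd17b10 from 36.3 to 138 CPM. Prlr, the prolactin receptor, was at 221 and 7.67 CPM in TPMPik3r1 and at most 10.1 CPM elsewhere. Creb1 ranged from 39.4 to 67.0 CPM, Crem from 9.09 to 18.5 CPM and Pde8a from 3.66 to 58.2 CPM. Among regulators, Nr4a1, an early response receptor, reached 971 CPM in TPMPik3r1 replicate 2 and was at 102 CPM in replicate 1, while TPMPik3ca replicate 1 held 776 CPM. Cited2 ranged from 57.4 to 148 CPM and Nr2f2 from 41.5 to 64.1 CPM. Gata4 was at 137 and 183 CPM in TPMPik3r1, above all other libraries.

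The genes whose log2 CPM was most like that of Nr5a1 over the 8 libraries were Usp48 (Pearson r = 0.989), Itpr1 (0.988), Zfp74 (0.984), Ptp4a3 (0.982) and Lrrc24 (0.979). All 5 were highest in the TPMPik3r1 libraries, and the points share these libraries and their scaling. Ptp4a3 was at 493 and 437 CPM in TPMPik3r1 and between 47.7 and 157 CPM elsewhere. Usp48 was at 161 and 155 CPM against 81.5 to 119 CPM, and Itpr1 at 216 and 126 CPM against 34.2 to 76.7 CPM. None of these genes was a member of the lists.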

How the data were processed

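Bulk RNA libraries of 4 models, 2 per model, were grouped by the model and replicate in the labels. The authors had reads trimmed by the sequencing company, aligned them to mm10 with STAR and deposited raw counts, whole numbers of reads per gene symbol. The counter, its annotation and its strand setting are not given in the sources used here. A deposited table of counts normalized by DESeq2 was not used. Hsd17b8 and Sts were not found under these symbols. Total counts lay between 15748396 and 26943611.

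The counts were scaled by TMM in edgeR 4.0.16 and filtered by filterByExpr, which left 15875 genes. One quasi-likelihood fit over 8 libraries gave the contrasts, with Benjamini-Hochberg adjustment over all genes tested and a threshold of 0.05. Log2 CPM used a prior count of 2. Lower bounds of folds used 3 counts in each library. R 4.3.3, limma 3.58.1 and DESeq2 1.42.0 were used, and the fit was tested on simulated data. Alternatives were the Wald test of DESeq2, other scalings and filters, fewer libraries, a replicate block, the study's thresholds and another prior count. Positions and exon lengths came from GENCODE M21 (GRCm38).

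The members and lists were chosen with earlier results of these data known. Named were all members, pathway genes that passed a test without TPMPik3r1, up to 4 genes a list with the highest mean log2 CPM, and the 5 genes most like Nr5a1. For marker lists the sums and the genes at 0 were named. Some of the genes this rule names, and some engineered genes, are not reported here.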

Additional observations from a re-analysis of the deposited data

How the results depend on the processing

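Each model had 2 libraries, so single libraries could decide a call. With the Wald test of DESeq2, 2 members were called for TPMPik3ca against TPM, 1 for TPK against TPM and 2 for TPK against TPMPik3ca, and the pathway genes called numbered 10, 3 and 12. At the thresholds of the study, a raw p under 0.05 with a change of more than 1 on the log2 scale, the members numbered 2, 1 and 2 and the pathway genes 11, 4 and 12. In both settings, 1 of the 2 members for TPK against TPMPik3ca was Nr5a1, from which nothing is read. Library size alone gave 1 member for TPK against TPMPik3ca, and no filter gave 5 pathway genes for TPMPik3ca against TPM. Fitting the 2 compared models alone gave 9 pathway genes for TPMPik3ca against TPM and 7 for TPK against TPMPik3ca. Without the TPMPik3r1 libraries these were 7 and 11, with 1 member for TPK against TPMPik3ca. The causes were not tested.

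Leaving out each library in turn gave 1 to 7 pathway genes for TPMPik3ca against TPM, 0 to 12 for TPK against TPMPik3ca, and 0 to 1 members for the latter, and 0 in the other comparisons. The median difference of the members in TPMPik3r1 lay between 2.63, without TPMPik3r1 replicate 1, and 6.83. The members above every other library numbered 6 to 9. Nr5a1 could not be fitted without the TPMPik3r1 libraries or with only the 2 models, because it failed the filter, so its planned comparison is not reported as a test.

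Replicate numbers did not pair the libraries: deviations of same-numbered libraries correlated between -0.0687 and -0.00819 over 15875 genes. With the replicate block, 0 members were called in each comparison, and 2, 0 and 3 pathway genes were called. The block changed no other call of the members. Members at 0 to 3 counts in TPK, TPM or TPMPik3ca are limited by depth.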
